A study of Mus musculus with 12 samples.

Results

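The genes described here are 9 components of the tight junction in mouse skin, namely 7 claudins (Cldn1, Cldn3, Cldn4, Cldn7, Cldn8, Cldn12 and Cldn23), occludin (Ocln) and the zonula occludens scaffold protein ZO-1 (Tjp1). They were chosen by gene symbol from the 23282 entries of the deposited count tables, and each has 1 entry. Earlier results of these data were known when the members were chosen. Skin was compared between 5 mice of the AD group and 7 mice of the HF + AD group.

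Tight junctions seal the space between neighbouring epithelial cells. Claudins are the membrane proteins that form the sealing strands and decide which ions and solutes pass, occludin joins these strands, and zonula occludens proteins tie them to the actin cytoskeleton from the cytoplasmic side. In the epidermis, functional tight junctions lie in the granular layer beneath the cornified layer, and they form a barrier in addition to it.

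All mice were male, wild-type by label, of the C57BL/6J strain and 5 weeks old at arrival. Every mouse of both groups received 0.5% 1-chloro-2,4-dinitrobenzene (DNCB), a contact sensitizer used to induce AD-like lesions, on the dorsal skin 3 times per week for 6 weeks. The AD mice ate normal chow, and the HF + AD mice (labelled AD+OB) ate a diet with 60% of its kcal from fat for 10 weeks, starting 4 weeks before DNCB. RNA of whole skin was sequenced from the 3′ end of transcripts, with 1 library per mouse. The comparison therefore asks how the tight junction genes of DNCB-treated skin differed with the diet. It has no group without DNCB, so that it says nothing about the effect of DNCB itself.

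The libraries held 9746937 to 11688979 counts in the AD mice and 10726845 to 13462434 in the HF + AD mice. Fewer genes had a read in AD (13100 to 15063) than in HF + AD (15522 to 16677), without overlap, and AD mice 1 and 2 had the fewest. Keratinocyte, fibroblast, endothelial, muscle and hair follicle markers were all present, and no marker of the 11 lists used was at 0 in every mouse. The summed level of 8 basal keratinocyte markers was 3918 to 5747 CPM (read counts scaled to the same library size, with TMM factors) in AD and 6530 to 11214 CPM in HF + AD, without overlap, and 3 of the 8 (Krt5, Krt14 and Krt15) passed the test as higher in HF + AD. The sum of 10 suprabasal markers overlapped between groups (1482 to 4188 CPM in AD and 1677 to 3206 CPM in HF + AD), and so did that of 7 markers of hyperproliferative epidermis (7187 to 24216 CPM and 7197 to 18463 CPM). Of 12 markers of the hair shaft and inner root sheath, 4 passed the test as higher in HF + AD and 0 as lower. Of 7 endothelial markers 2 were called higher, of 7 skeletal muscle markers 1 was called lower (median log2 fold change -0.68), and of 5 leukocyte markers tested 0 were called (median 0.84; summed level 16.3 to 35.8 CPM in AD and 27.4 to 80.4 CPM in HF + AD).

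Of the 9 tight junction genes, Cldn3 and Cldn4 were higher in HF + AD than in AD, and the other 7 did not pass the test. Cldn3 was 2.63-fold and Cldn4 1.70-fold higher, and in both genes the lowest of the 7 HF + AD mice exceeded the highest of the 5 AD mice. Cldn8 leaned the other way with 1.77-fold more in AD, but it did not pass after adjustment. The most evenly expressed member, Cldn1, and the scaffold gene Tjp1 differed by 0.07 and -0.0031 on the log2 scale. The test was edgeR's quasi-likelihood test with Benjamini-Hochberg adjustment over 14163 genes, and a gene was called at an adjusted p under 0.05. All 9 members passed the filter on low counts. With 2 of 9 members called as higher and 0 as lower, the background over all genes tested was 9.2% called, with 4.43% higher and 4.77% lower. The median log2 fold change of the members was 0.24, against 0.023 over all genes, and 6 of the 9 members were above 0, as were 51.7% of all genes. Libraries with more genes detected and a higher sum of basal keratinocyte markers were the same 7 libraries that had more Cldn3 and Cldn4. The part of gene detection and of the hair, endothelial, muscle and leukocyte markers in these differences was not tested, and the members are set against the keratinocyte markers further on. In whole skin, fewer cells of a type and less RNA per cell cannot be told apart, and this applies to every difference below.

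**Figure D1:**
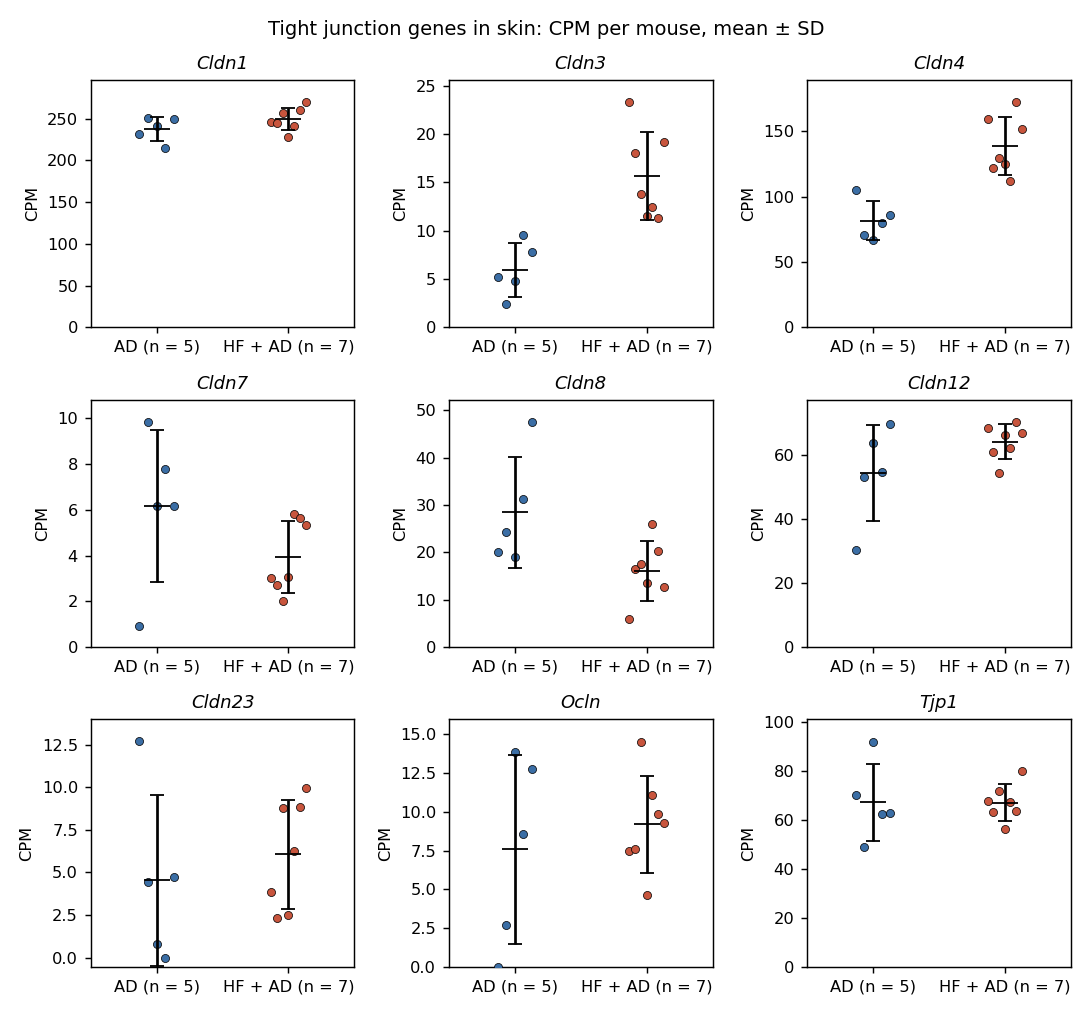
CPM of the 9 members in each mouse, 1 panel per gene, with AD in blue (n = 5) and HF + AD in red (n = 7). Bars give mean ± SD; the y axes differ between panels. The groups separate for Cldn3 and Cldn4 and overlap for the other 7 genes, and in Cldn23 and Ocln 1 AD mouse is at 0.

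Cldn3 and Cldn4 are barrier-tightening claudins, best known as the receptors of the Clostridium perfringens enterotoxin. They are neighbours on chromosome 5, with 39279 bases between them on opposite strands. Cldn4 lies at chr5:134945119-134946934 on the minus strand and Cldn3 at chr5:134986214-134987472 on the plus strand of GRCm38 (GENCODE M21), and each consists of 1 exon. The promoter windows below, from RefSeq (GRCm38.p6), span 250 bases before to 50 bases after the start of transcription, and that of Cldn1 on chromosome 16, which did not pass the test, is given for comparison. Capitals mark matches, on either strand, to the AP-1 motif TGANTCA and to the CACCC box (CACCC), a letter pattern bound by Krüppel-like factors. The windows lie at chr5:134985964-134986263 (plus strand), chr5:134946885-134947184 (minus strand) and chr16:26371790-26372089 (minus strand).
Cldn3: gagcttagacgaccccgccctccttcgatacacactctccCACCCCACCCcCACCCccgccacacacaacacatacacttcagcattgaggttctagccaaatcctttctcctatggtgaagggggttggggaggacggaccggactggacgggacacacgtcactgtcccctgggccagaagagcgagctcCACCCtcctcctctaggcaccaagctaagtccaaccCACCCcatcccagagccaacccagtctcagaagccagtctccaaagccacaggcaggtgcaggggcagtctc
Cldn4: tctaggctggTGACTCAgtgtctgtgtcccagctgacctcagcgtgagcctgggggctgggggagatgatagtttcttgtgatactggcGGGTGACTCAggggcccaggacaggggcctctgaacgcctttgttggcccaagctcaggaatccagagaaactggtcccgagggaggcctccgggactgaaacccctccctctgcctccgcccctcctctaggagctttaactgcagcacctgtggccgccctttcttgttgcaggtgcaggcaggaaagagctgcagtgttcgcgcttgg
Cldn1: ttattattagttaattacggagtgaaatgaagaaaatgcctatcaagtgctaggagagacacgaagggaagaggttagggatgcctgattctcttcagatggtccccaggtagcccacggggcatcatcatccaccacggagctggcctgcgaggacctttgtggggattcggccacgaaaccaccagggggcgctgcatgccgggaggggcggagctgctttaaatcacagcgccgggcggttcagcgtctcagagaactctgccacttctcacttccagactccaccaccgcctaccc
Neither pattern was found in all 3 windows. The Cldn3 window held 5 CACCC boxes, whose first bases lie at -210, -205, -199, -58 and -22 from the start of transcription, and no AP-1 match. The Cldn4 window held 2 AP-1 matches, at -240 and -158, and 1 CACCC box, at -161, that overlaps the second of them. Neither pattern was present in the Cldn1 window. Among 32851 windows of this length over all genes, 7.81% held an AP-1 match and 0.46% at least 2, while 57.5% held a CACCC box and 1.02% at least 5. Of the members, 7 had at least 1 window (11 windows in all), and AP-1 was found in 1 of the 11 and the CACCC box in 8. The Grainyhead-like motif AACCNGTT and the TATA box TATAAA, which occur in 2.09% and 13.6% of all windows, were found in 0 of the 11. A match is a description of the letters and says nothing about binding.

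The level of Cldn4 was 105, 70.5, 66.6, 80.1 and 86.2 CPM in AD mice 1 to 5. In HF + AD it ranged from 112 to 172 CPM with a median of 130 CPM. The highest AD mouse, mouse 1, was below the lowest HF + AD mouse. The underlying counts were 659 to 1155 in AD and 1193 to 2111 in HF + AD, so that counting error is small beside the spread between mice. The fitted log2 fold change was 0.77 (SE 0.15, adjusted p = 0.00833, edgeR). On the log2(CPM + 1) scale the groups were 6.35 ± 0.25 (SD, n = 5) and 7.11 ± 0.23 (SD, n = 7), and the exact two-sided permutation test over the 792 splits of the mice gave p = 0.00126, the smallest it can give. By its p-value Cldn4 stood within the first 1.16% of the genes tested. Of all genes, 5.46% had groups that did not overlap, 2.9% with HF + AD higher and 2.56% with HF + AD lower, and 28.4% had an exact permutation p under 0.05 (16.6% higher and 11.8% lower).

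The level of Cldn3 was 5.17, 2.38, 4.75, 9.56 and 7.79 CPM in AD mice 1 to 5. In HF + AD it ranged from 11.3 to 23.3 CPM with a median of 13.8 CPM. All HF + AD mice were above the highest AD mouse, mouse 4. The counts were 57, 23, 47, 108 and 86 in AD and 132 to 302 in HF + AD. The fitted log2 fold change was 1.40 (SE 0.36, adjusted p = 0.0240, edgeR), and the group means on the log2(CPM + 1) scale were 2.69 ± 0.63 (SD, n = 5) and 4.01 ± 0.38 (SD, n = 7), with an exact permutation p of 0.00126. The call was lost without HF + AD mouse 1 (log2 fold change 1.27, adjusted p = 0.0612) and without HF + AD mouse 2 (1.35, adjusted p = 0.0578). It was also lost without AD mice 1 and 2 together (1.08, adjusted p = 0.0553), a choice made after seeing the data, whereas Cldn4 was then still called (0.84, adjusted p = 0.0220).

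The counts of Cldn3 cannot be separated from those of a neighbour. Wbscr25, a long noncoding RNA of the minus strand at chr5:134987433-135001350, shares 40 bases with the 3′ end of the 1259-base Cldn3 exon, where reads of 3′-end libraries concentrate. Whether reads were counted by strand is not given in the sources used here. Wbscr25 had 31, 23, 45, 105 and 62 counts in AD mice 1 to 5 and 90 to 194 in HF + AD. Its count was 54.4% to 100% of that of Cldn3 in the same AD mouse and 44.4% to 88.9% in the same HF + AD mouse. In AD mice 2, 3 and 4 the 2 genes were within 3 counts of each other. Wbscr25 itself had a log2 fold change of 1.12 (adjusted p = 0.0765, edgeR). After subtraction of the Wbscr25 count, a choice made after seeing the data, 26, 0, 2, 3 and 24 counts of Cldn3 remained in AD and 18 to 168 in HF + AD, and the groups overlapped. Cldn3 then had a log2 fold change of 2.27 and was not called (adjusted p = 0.135), with an exact permutation p of 0.0189. The direction was thus the same with either count, and only the full count passed the test across all genes.

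**Figure D2:**
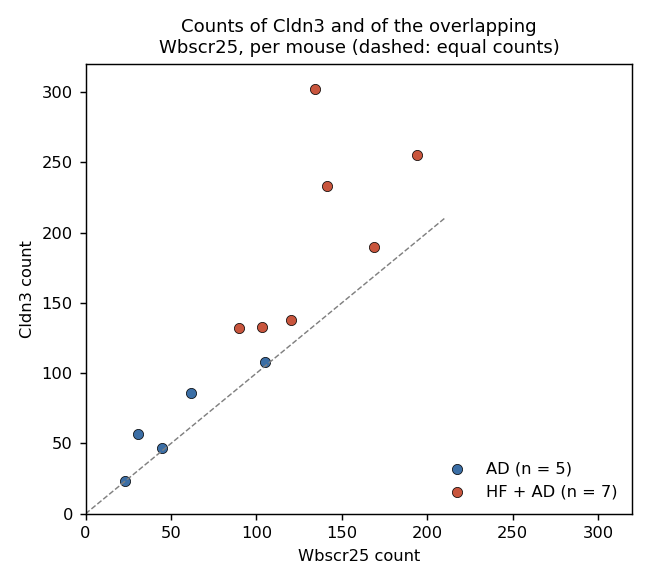
Count of Cldn3 (y axis) against the count of the overlapping Wbscr25 (x axis) in each library, AD in blue (n = 5) and HF + AD in red (n = 7). The dashed line marks equal counts; AD mice 2, 3 and 4 lie on or within 3 counts of it, and the HF + AD mice lie 18 to 168 counts above it.

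Cldn8, which pairs with Cldn4 in the chloride-selective junctions of the kidney collecting duct, was at 20.1, 24.2, 19.1, 31.3 and 47.5 CPM in AD mice 1 to 5. In HF + AD it ranged from 5.93 to 26.0 CPM with a median of 16.4 CPM. The groups overlapped, with 5 of the 7 HF + AD mice below all AD mice and AD mouse 5 far above the others. The log2 fold change was -0.83 (SE 0.31) with an unadjusted p of 0.0177 and an adjusted p of 0.108 in edgeR. An unadjusted p under 0.05 was reached by 12.8% of all genes as lower in HF + AD. The exact permutation test of Cldn8 alone gave p = 0.0290 (4.80 ± 0.52 against 3.99 ± 0.62, SD, n = 5 and 7), which rose to 0.0727 without AD mouse 4 and to 0.0970 without AD mouse 5.

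Cldn1, the claudin without which newborn mice die of water loss through the epidermis, was at 232, 250.3, 241, 215 and 250.03 CPM in AD mice 1 to 5. In HF + AD it ranged from 228 to 270 CPM with a median of 246 CPM. The groups overlapped in part, with 3 of the 7 HF + AD mice above the highest AD mouse and none below the lowest. The coefficient of variation was 6.18% in AD and 5.42% in HF + AD, the lowest among the members in both groups. The log2 fold change of 0.07 (SE 0.10) had an adjusted p of 0.722 in edgeR, and the exact permutation p was 0.176. With counts of 2384 to 3585 per mouse, Cldn1 was the member with the smallest counting error and the narrowest error of its fold change.

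Tjp1 encodes ZO-1, which binds claudins and occludin through separate domains. Its level was 70.2, 48.9, 91.9, 62.5 and 62.9 CPM in AD mice 1 to 5, and it ranged from 56.2 to 80.03 CPM with a median of 67.4 CPM in HF + AD. The HF + AD range lay within the AD range. For Tjp1 the log2 fold change was -0.0031 (SE 0.16, adjusted p = 0.994, edgeR) and the exact permutation p was 0.907, and 99.1% of the genes tested had a p as small or smaller.

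Cldn12, a claudin that lacks the usual C-terminal motif for binding zonula occludens proteins, was at 30.2, 52.9, 63.6, 54.4 and 69.4 CPM in AD mice 1 to 5. In HF + AD it ranged from 54.1 to 70.1 CPM with a median of 66.0 CPM. The AD mice were more spread (coefficient of variation 27.7%) than the HF + AD mice (8.52%), and AD mouse 1 was the lowest of all 12. In edgeR the log2 fold change was 0.24 (SE 0.18, adjusted p = 0.436), with an exact permutation p of 0.105.

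Cldn7, a claudin of the lateral membrane that associates with EpCAM, was at 0.908, 9.84, 6.16, 7.79 and 6.16 CPM in AD mice 1 to 5. In HF + AD it ranged from 2.03 to 5.81 CPM with a median of 3.05 CPM. AD mouse 1 was the lowest of all 12 mice and the other 4 AD mice were the highest. Over all mice the log2 fold change was -0.65 (SE 0.54, adjusted p = 0.494, edgeR) with an exact permutation p of 0.365. Without AD mouse 1 the exact permutation p was 0.00606, the difference on the log2(CPM + 1) scale being -0.82. In edgeR Cldn7 was not called without this mouse either (log2 fold change -0.92, adjusted p = 0.171). Only the exact permutation result for Cldn7 thus turned on this library of 10 counts. With all mice, 28.4% of all genes had an exact permutation p under 0.05.

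Cldn23 and Ocln had few counts, and among the members the widest spread in AD, with coefficients of variation of 111% and 80.4%. Cldn23 was at 12.7, 4.45, 0.808, 0 and 4.71 CPM in AD mice 1 to 5, and at 2.33 to 9.93 CPM with a median of 6.28 CPM in HF + AD. Ocln was at 0, 2.69, 13.8, 8.58 and 12.8 CPM in AD, and at 4.61 to 14.5 CPM with a median of 9.25 CPM in HF + AD. AD mouse 4 had no count of Cldn23, which allows up to 0.270 CPM, and AD mouse 1 no count of Ocln, which allows up to 0.257 CPM. For these limits 3 counts were taken as the limit for a count of 0 and divided by the library total without the TMM factor. Both genes had counts in all 7 HF + AD mice, at least 29 for Cldn23 and at least 53 for Ocln. The log2 fold changes were 0.42 (SE 0.80) for Cldn23 and 0.28 (SE 0.68) for Ocln, with adjusted p of 0.796 and 0.842 in edgeR, and the exact permutation p were 0.268 and 0.323. A difference between the groups was not detectable for these genes at this depth and spread. The sign of Ocln turned to -0.040 without AD mouse 1.

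The summed basal keratinocyte markers differed between groups, so each member was also expressed relative to these markers. This was log2(CPM + 1) minus the mean of the 8 markers in the same library. The marker mean itself was 8.17 ± 0.10 (SD, n = 5) in AD and 8.55 ± 0.17 (SD, n = 7) in HF + AD. The marker mean is higher in HF + AD, but not every marker is. Only 3 of the 8 were called, and Dst had a log2 fold change of -0.16 (adjusted p = 0.508, edgeR). Subtracting the marker mean shifts the difference of each gene by the same amount. Over all genes tested the median difference was -0.27, 69.3% of genes were below 0, and 33.6% had an exact permutation p under 0.05 (4.29% higher and 29.3% lower in HF + AD). A difference is therefore read against that median. The subtraction leaves the order of the genes as it was on the log2(CPM + 1) scale. The shares of genes below a member thus restate that comparison, and they do not test the part of keratinocyte content in it. Cldn3 and Cldn4 were still higher in HF + AD, by 0.94 and 0.38 (exact permutation p = 0.00253 and 0.0152), and 97.6% and 86.9% of all genes had a lower difference. Cldn8 had a difference of -1.19 (exact permutation p = 0.00379), and 2.63% of genes lay below it. The differences of Cldn1 (-0.31, exact permutation p = 0.0126) and Tjp1 (-0.36, exact permutation p = 0.0354) were close to the median of all genes, with 47.5% and 43.1% of genes below them, and are no result about these genes. The differences of Cldn7, Cldn12, Cldn23 and Ocln were -0.78, -0.096, 0.38 and 0.34, with exact permutation p of 0.115 to 0.692. These 9 p-values are not adjusted. Against the 10 suprabasal markers, where the median over all genes was -0.0093 and 6.48% of genes had an exact permutation p under 0.05, Cldn3 (1.21, exact permutation p = 0.0303) and Cldn8 (-0.93, exact permutation p = 0.0455) had p-values under 0.05, and Cldn4 did not (0.65, exact permutation p = 0.0631).

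**Figure D3:**
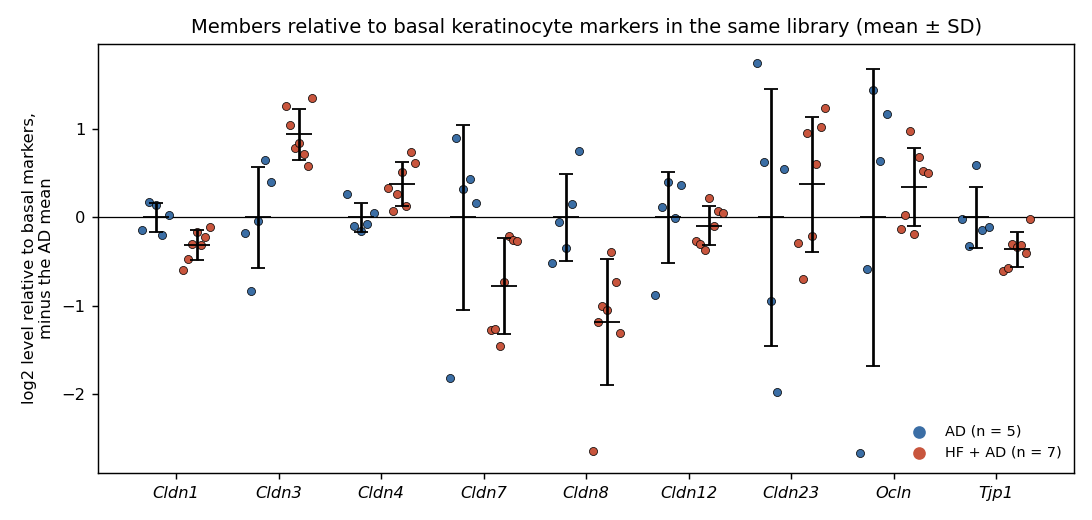
Level of each member relative to 8 basal keratinocyte markers of the same library, as a log2 difference from the AD mean (y axis), for AD (blue, n = 5) and HF + AD (red, n = 7). Bars give mean ± SD. The HF + AD mean is higher for Cldn3 and Cldn4 and lower for Cldn8, while Cldn1 and Tjp1 lie near the median difference of all genes, -0.27.

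The balance between members, as counts within 1 library, is given as a description, since 3′-end counts of different genes are not levels on a common scale. There were 27.6 to 45.2 Cldn4 counts per 100 Cldn1 counts in AD (median 34.5) and 46.2 to 66.3 in HF + AD (median 54.8), without overlap. Per 100 Tjp1 counts there were 72.4 to 149 Cldn4 counts in AD and 166 to 271 in HF + AD, also without overlap. Cldn4 alone did not overlap either, so neither ratio is a result separate from that of Cldn4. The proportion of Cldn8 to Cldn4 moved the other way, with overlap. It was 19.1 to 55.1 per 100 in AD (median 34.4) and 3.71 to 23.2 in HF + AD (median 11.8). Its denominator, Cldn4, was called higher and Cldn8 was not called, so this ratio is no separate result either. Cldn3 per 100 Cldn1 counts overlapped narrowly between groups, at 0.952 to 4.44 and 4.34 to 9.45.

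The members did not share a pattern over the 12 mice. Likeness was measured as the mean absolute difference between standardised log2(CPM + 1) profiles, in SD units, over 12 mice, as a description across libraries that share depth and group. Over the 36 pairs of members it ran from 0.455 to 1.48 (median 0.978). The closest pairs were Cldn12 with Ocln (0.455), both low in AD mouse 1, Cldn3 with Cldn4 (0.487) and Cldn1 with Cldn23 (0.558). Of 13200 genes, 2.23% were as close to Cldn12 as Ocln was, 3.98% as close to Cldn3 as Cldn4 was, and 0.174% as close to Cldn1 as Cldn23 was. Over all genes, the profiles nearest to that of Cldn3 were Klc3 (0.204), Synpo (0.216) and Cxx1b (0.252), and those nearest to Cldn4 were Tmem150a (0.255), Tm4sf1 (0.280) and Fbxo46 (0.282). The nearest to Cldn8 were Gpnmb (0.249), Epn2 (0.286) and Prr12 (0.297). The nearest gene was Cp for Cldn1 (0.439), Sirt5 for Cldn7 (0.317), Krtap4-6 for Cldn12 (0.245), Nccrp1 for Cldn23 (0.389), Fuk for Ocln (0.240) and Pde4a for Tjp1 (0.378).

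The other tight junction genes, a short name for 5 lists, also hold claudin partners, membrane proteases and transcription factors of epithelial identity. They are thus not limited to junction proteins. These lists gave 2 higher and 3 lower calls among 71 genes tested, of 96 in the files, against the 9.2% of all genes that were called. Over these 71 genes 35 log2 fold changes were above 0 and 36 below. A share of 5 in 71 is no more than this background. The calls lay in the cytoplasmic plaque, the claudin partners and the transcription factors, and none in the membrane proteins.

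Plaque and polarity proteins gave 1 higher and 2 lower calls of 31 tested, with a median log2 fold change of 0.16. Ppp2r1a, the scaffold subunit of protein phosphatase 2A, was at 28.7 to 52.9 CPM in AD and 58.4 to 123 CPM in HF + AD (log2 fold change 1.13, SE 0.22, adjusted p = 0.00725, edgeR), without overlap. The PDZ scaffold genes Magi1 and Magi2 fell, with log2 fold changes of -0.58 (SE 0.17, adjusted p = 0.0450) and -1.07 (SE 0.29, adjusted p = 0.0320). Both overlapped between groups, with 5 of 7 and 6 of 7 HF + AD mice below all AD mice. Neither call was firm. Magi1 was called in 8 and Magi2 in 14 of 24 alternatives, and leaving out 1 mouse took the adjusted p of Magi1 to at most 0.104 (without AD mouse 1) and that of Magi2 to at most 0.0838 (without AD mouse 2). Tjp3, which encodes ZO-3, had 3, 1, 32, 29 and 63 counts in AD and 32 to 230 in HF + AD. It is named here after its values were seen, and it was not called (log2 fold change 1.78, SE 0.77, adjusted p = 0.156, edgeR; exact permutation p = 0.0379).

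Of 11 membrane proteins tested, none was called by edgeR and 0 had an unadjusted p under 0.05. The smallest p-values belonged to F11r, which encodes the junctional adhesion molecule JAM-A (log2 fold change -0.34, SE 0.17, adjusted p = 0.214), and to Cxadr, the coxsackievirus and adenovirus receptor (-0.69, SE 0.34, adjusted p = 0.218). F11r was at 107 to 196 CPM in AD and 94.0 to 149 CPM in HF + AD. Among 9 claudin partners and membrane proteases 1 gene passed. The tetraspanin Cd9 fell by 0.47 on the log2 scale (-0.47, SE 0.14, adjusted p = 0.0389), from 804 to 1213 CPM in AD to 619 to 908 CPM in HF + AD. Cd9 was called in 10 of 24 alternatives, and its adjusted p reached 0.0975 without AD mouse 2. Of 16 transcription factors of epithelial identity, Ovol1, a zinc finger transcription factor that promotes epidermal differentiation, was called. It rose by 0.62 (SE 0.16, adjusted p = 0.0232), from 118 to 197 CPM in AD to 197.01 to 316 CPM in HF + AD, with the highest AD mouse (196.67 CPM) just below the lowest HF + AD mouse. Ovol1 was called in 18 of 24 alternatives, and without AD mouse 2 its adjusted p was 0.0607. Relative to the basal keratinocyte markers the difference of Ovol1 was 0.25 (exact permutation p = 0.268). The median of all genes was then -0.27, and 33.6% of them had an exact permutation p under 0.05. By the same measure Ppp2r1a had 0.70, Magi1 -0.92, Magi2 -1.41 and Cd9 -0.84, with exact permutation p of 0.0139, 0.00126, 0.00379 and 0.00126. On this scale 4.29% of all genes had an exact permutation p under 0.05 as higher and 29.3% as lower. These genes were named because edgeR called them in the same mice, so these p-values are no separate support. The other factors of the list were not called.

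**Figure D4:**
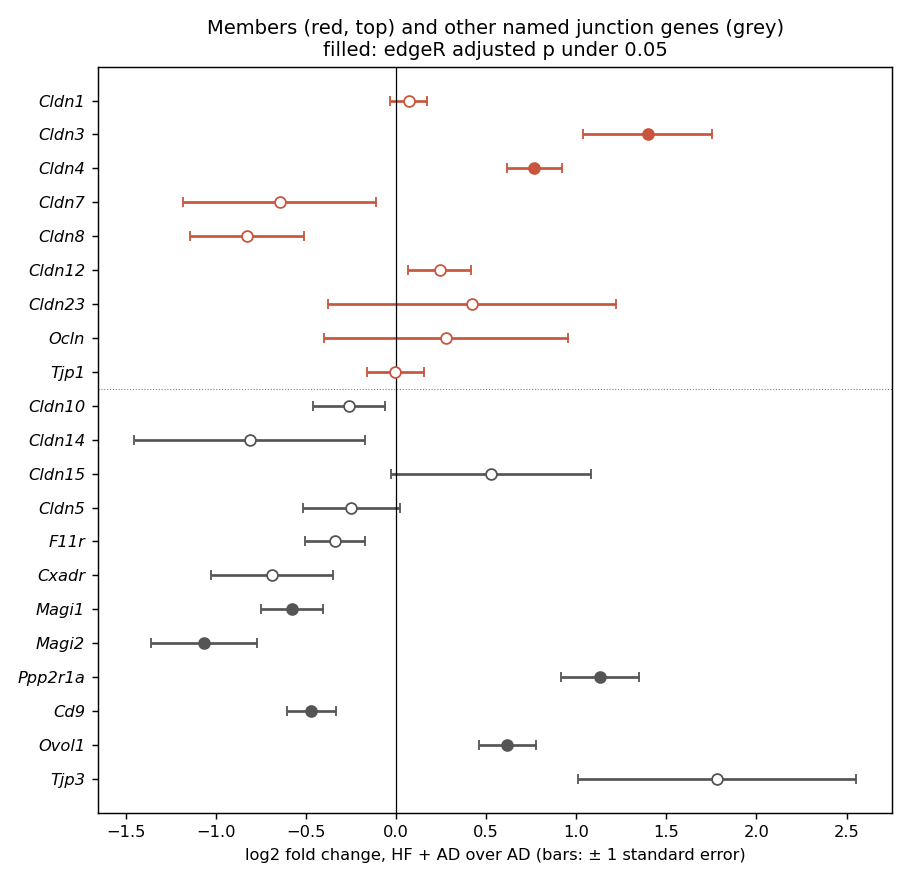
Log2 fold change of HF + AD over AD (x axis) for the 9 members (red) and 12 other tight junction genes named in the text (grey). Bars give 1 SE, derived from the F statistic of the edgeR test. Filled circles have an adjusted p under 0.05; these are Cldn3 and Cldn4 of the members and Ppp2r1a, Ovol1, Magi1, Magi2 and Cd9 of the others.

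Of the 25 other claudins in the files, 4 had enough counts to be tested, and edgeR called 0 of them, with 0 at an unadjusted p under 0.05. Cldn10, a claudin of ion-transporting glands, had a log2 fold change of -0.26 (SE 0.20, adjusted p = 0.460) at 48.9 to 122 CPM in AD and 50.02 to 103 CPM in HF + AD. Cldn5, the claudin of endothelial junctions, had a log2 fold change of -0.25 (SE 0.27, adjusted p = 0.620) at 9.19 to 22.5 CPM in AD and 11.7 to 23.1 CPM in HF + AD. The 7 endothelial markers summed to 54.7 to 109 CPM in AD and 67.8 to 133 CPM in HF + AD. Cldn14 and Cldn15 gave -0.81 (SE 0.64, adjusted p = 0.472) and 0.53 (SE 0.56, adjusted p = 0.610). The remaining 21 claudins had fewer than 20 counts on average. Of these, 10 had a read in some mouse, with 22 counts as the highest value in any mouse, and 11 had none.

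How far the results for the 9 members depend on the processing is shown by their range over the alternatives. The log2 fold change of Cldn4 stayed above 0 in all 24, at 0.41 to 0.88, and was called in 22. That of Cldn3 stayed above 0 in all 25, at 1.08 to 2.27, and was called in 18. GC correction took Cldn4 from 0.77 to 0.51 (adjusted p = 0.0349, edgeR). It took Cldn3 from 1.40 to 1.13 (adjusted p = 0.0384, edgeR). Cldn8 stayed below 0 in all 24 and was called in none (adjusted p 0.0590 to 0.303). Cldn1, Cldn12 and Cldn7 kept their sign in all 24 without a call. Cldn23 had the widest range, from 0.11 to 3.14 over 23 alternatives, and Ocln and Tjp1 took either sign.

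**Figure D5:**
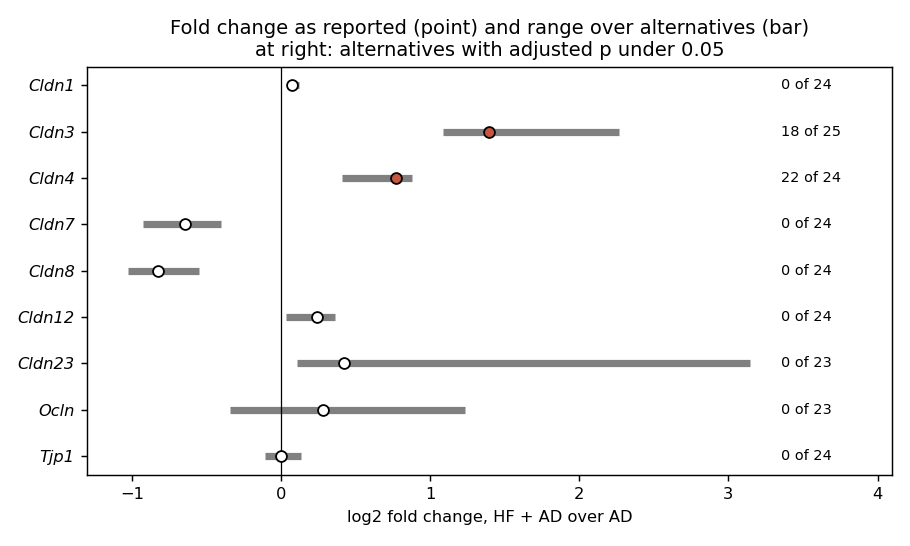
Log2 fold change of HF + AD over AD (x axis) for each member as reported (circle, filled where the adjusted p is under 0.05) and its range over the alternative settings (bar). The figures at the right count the alternatives with an adjusted p under 0.05, which are 22 of 24 for Cldn4, 18 of 25 for Cldn3 and 0 for the other 7.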

How the data were processed

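Male C57BL/6J mice of the AD (n = 5) and HF + AD (n = 7) groups were compared in skin, with groups taken from the sample labels. The deposited files hold raw counts per gene symbol, which the authors made from TRIzol RNA with the Lexogen QuantSeq 3′ mRNA kit and an Illumina NextSeq system. The submitters' processing notes name Bowtie2, bedtools and the mm10 build. Versions, strand setting and treatment of duplicate reads are not given in the sources used here, and no molecular identifiers are described, so that limits for a count of 0 cover counting error only. The tables held 23282 entries, of which 4677 had no read in any mouse and 35 symbols were listed more than once, none of them a member.

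Counts were filtered with filterByExpr, normalized by TMM (factors 0.944 to 1.04) and tested with edgeR 4.0.16 (quasi-likelihood, R 4.3.3) with Benjamini-Hochberg adjustment over 14163 genes, at a threshold of 0.05. The SE of a log2 fold change was derived as its absolute value divided by the square root of the edgeR F statistic. CPM are TMM-scaled, except in the limits for a count of 0. Single values were compared on log2(CPM + 1) by exact two-sided permutation over 792 splits (NumPy 2.4.6). The labels give separate mice, and no date or batch is given. The lowest chi-square per gene between libraries of a group was 23.0, so that no library was a copy of another. The fits were tested on simulated data. Alternatives used DESeq2 1.42.0 and limma 3.58.1.

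Named were all members, every gene of the other tight junction lists with an adjusted p under 0.05, and, where a list had none, the 2 with the smallest p. All other claudins with at least 20 counts on average and the 3 genes of the nearest profile to each member were named too, the latter in full for 3 members. The lists leave out 1 item that is not reported here. The members and the gene lists were chosen with earlier results of these data known. The labels do not say whether replicate numbers pair the mice (see the pairing check among the alternatives).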

Additional observations from a re-analysis of the deposited data

Results flagged for a closer look

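Of 42 groups of values checked, 2 held a mouse far from the others of its group by Dixon's criterion, which flags about 1 in 20 groups by chance. Cldn7 in AD mouse 1 was at 0.93 on the log2(CPM + 1) scale (0.908 CPM, 10 counts), where the other AD mice had 6.16 to 9.84 CPM, and its gap was 0.761 of the range of the group against a critical value of 0.710. Cldn5 in HF + AD mouse 7 was at 4.59 on the log2(CPM + 1) scale (23.1 CPM), with a gap of 0.622 of the range against 0.568.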

How the results depend on the processing

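Called genes numbered 1303 as reported, 2159 with the DESeq2 Wald test and 766 with sample quality weights, and leaving out 1 mouse gave 639 (without HF + AD mouse 2) to 1461, omission of HF + AD mouse 1, HF + AD mouse 4 and AD mouse 2 giving 686, 794 and 803. The split into 627 higher and 676 lower genes became 744 and 515 with library totals alone, and 472 and 869 after correction for GC content. The median log2 fold change of all genes moved from 0.023 to 0.15 in limma-trend, 0.12 without a filter and 0.12 with quality weights. Of the members, 2 were called as reported, both higher, 1 (Cldn4) with quality weights, 1 without AD mice 1 and 2, 1 with the Wbscr25 counts subtracted from Cldn3, the last 2 settings being chosen after seeing the data, and 1 to 2 when 1 mouse was left out. Cldn3 then had an adjusted p of at most 0.0612, and of 0.0499 and 0.0497 with AD mouse 3 or HF + AD mouse 7 omitted. Calls among the other tight junction genes numbered 5 as reported, 3 with library totals alone, 3 without a filter, 1 with quality weights, 2 without AD mice 1 and 2, and 1 to 6 when 1 mouse was left out (1 if it was AD mouse 2, 2 if it was HF + AD mouse 1, 2, 6 or 7, and 3 if it was AD mouse 3 or HF + AD mouse 4).

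The exact permutation test gave p under 0.05 for 3 of 9 members as reported (28.4% of all genes) and for 5 with library totals alone (28.5% of all genes), where Cldn1 and Cldn12 joined. Relative to keratinocyte markers it did so for 5 with the basal list (33.6% of all genes) and 2 with the suprabasal list (6.48% of all genes).

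The labels do not say whether equal replicate numbers pair mice, and the correlations that follow are a description without a test. The correlations of the deviations of same-numbered mice were 0.067, -0.029, -0.11, 0.072 and 0.039, and only mouse 4 correlated best with its own number. With a replicate block 192 genes, 0 members and 0 other tight junction genes were called by edgeR, and with a replicate block and GC correction 245, 0 and 0, the 2 HF + AD mice without a number in AD adding nothing to the contrast. The median of all genes was then 0.14 and 0.065. Cldn4 had an adjusted p of 0.0541 and 0.161, and Cldn3 one of 0.126 and 0.166.

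Signs turned only in Tjp1, Ocln, Cldn12 and Cldn23, none of them called in any setting of the fit across all genes. The log2 fold change of Tjp1 was 0.043 with library totals alone, 0.0062 without a filter, 0.0074 with at least 10 counts in every mouse, 0.020 in limma-trend, 0.025 with quality weights and -0.096 to 0.13 when 1 mouse was left out. Its difference in the exact test was -0.087 to 0.14 when 1 mouse was left out and -0.092 without AD mice 1 and 2. For Ocln, the fold change was -0.040 to 0.59 when 1 mouse was left out and -0.35 without AD mice 1 and 2, where the exact test had -0.36. Its level relative to the markers was -0.51 by the difference in mean ranks, -0.32 (without AD mouse 1) to 0.71 when 1 mouse was left out, and -0.74 without AD mice 1 and 2 (exact permutation p = 0.0333). Relative to the markers, Cldn12 was at -0.32 to 0.0048 (without AD mouse 3) when 1 mouse was left out and 0.17 with the suprabasal list, and Cldn23 at -0.12 (without AD mouse 4) to 0.81 when 1 mouse was left out. The cause of these changes was not tested.

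Depth limits the members with few counts. The libraries of AD mice 1 and 2 held the fewest genes, and the quality weights of the AD mice were 0.271 to 1.33 against 1.09 to 1.87 in HF + AD. Exact p-values cannot go below 0.00126 in this design.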
